A study of Mus musculus with 8 samples.

Results

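The mRNAs of 34 splicing regulators were followed in C2C12, a line of mouse myoblasts whose cells fuse into myotubes when serum is low. The genes were taken by symbol from a table of 23420 genes: 20 encode hnRNP proteins, 12 encode SR or SR-like proteins, and 2, Sfpq and Nono, encode DBHS (Drosophila behaviour human splicing) proteins. Hnrnpd, which encodes AUF1 itself, and its close relatives Hnrnpdl and Hnrnpab were not members. Of the 34 symbols, 33 were listed as such and Hnrnpll was listed under its older symbol Hnrpll. All 34 passed the filter on low counts, as did 13167 genes in all.

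The study asked how AUF1, an mRNA-binding protein that recognises AU-rich elements in 3' untranslated regions, acts on mRNA stability and translation in muscle cells. RNA was sequenced from cells overexpressing AUF1 and from cells labelled WT, each as RNA on heavy polysomes, the fraction with many ribosomes per mRNA, and as total RNA. This gave 4 groups of 2 libraries: AUF1 polysome, WT polysome, AUF1 total and WT total. Every group was grown in 10% fetal bovine serum and then kept for 48 h in 2% horse serum. The labels do not say whether WT cells carry an empty vector, which promoter drives AUF1, or whether the overexpressing line is 1 clone or a pool, so AUF1 and other differences between the lines cannot be told apart. Nor do they state that a group's 2 libraries are from different cultures; p-values then reflect only how far these libraries vary, and that variation may be technical.

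hnRNP proteins coat nascent pre-mRNA, and many of them repress the use of nearby splice sites. SR proteins carry a domain rich in arginine and serine, bind exonic enhancers and recruit the spliceosome, and several also follow mRNA to the cytoplasm. Both families regulate their own mRNAs, often by splicing in a poison exon that sends the transcript to nonsense-mediated decay. Alternative splicing changes widely when myoblasts become myotubes.

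Counts assigned to genes came to between 25281224 and 34917660 per library, and the 34 genes held 0.345% to 0.597% of them. Levels are given as CPM, the usual depth-scaled count, after TMM scaling (trimmed mean of M-values), with replicate 1 before replicate 2. Log2 fold changes carry their SE, and a gene was called at an adjusted p under 0.05 in edgeR's quasi-likelihood test. Hnrnpd, the overexpressed gene, stood at 549 and 427 CPM in AUF1 polysome libraries, against 106 and 131 CPM in WT polysome libraries. In total RNA it stood at 448 and 397 CPM in AUF1 total libraries, against 64.2 and 99.6 CPM in WT total libraries, so each AUF1 library lay above each WT library in both fractions. The libraries also separated by replicate number: the first principal component of all genes held 44.6% of the variance, with the replicate 1 libraries on one side and the replicate 2 libraries on the other. The second component held 37.1%, with the AUF1 libraries on one side and the WT libraries on the other. The labels give the replicate number without saying what the libraries of one number share, so results are given pooled, with the number as a term in the fit ("the number as a term"), and within each number. In total RNA edgeR called Hnrnpd without the number (adjusted p 0.041) and with it (9.0e-04). On polysomes edgeR called Hnrnpd only with the number as a term (adjusted p 0.0018). The fit without the number can thus miss a difference of this size.

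Markers of muscle, the labelled cell type, were present, and 8 of the 9 measured had log2 fold changes above 0, AUF1 over WT, in each fraction. Myod1, a myogenic transcription factor, was present in all 8 libraries, at 191 to 359 CPM, and its genotypes overlapped in both fractions. Myf5 was the marker below 0. It stood at 34.7 and 33.5 CPM in AUF1 polysome libraries, against 40.5 and 55.9 CPM in WT polysome libraries. The sums that follow lean on Acta1, at 9016 and 10905 CPM in AUF1 polysome libraries. The 9 measured muscle markers summed to 18313 and 21279 CPM in AUF1 polysome libraries, against 3548 and 5200.7 CPM in WT polysome libraries. In total RNA they summed to 25705 and 20700 CPM in AUF1 libraries, against 4158 and 4811 CPM in WT libraries. Without the number, edgeR called 0 of the 9 on polysomes, against 0.349% of all genes tested, and 3 in total RNA, against 1.02%. With the number as a term, 7 of the 9 passed as higher in AUF1 cells in each fraction, against 13% and 13.1% of all genes in either direction. The 9 fibroblast markers summed to 1460.2 and 1013 CPM in AUF1 polysome libraries, against 5695 and 2172 CPM in WT polysome libraries, and to 2706 and 934 CPM in AUF1 total libraries, against 7412 and 1873 CPM in WT total libraries. The fibroblast sums lean on collagen genes, with Col1a2 at 2372 and Col3a1 at 1766 CPM in WT polysome replicate 1. In total RNA the sums overlapped between genotypes. Lum and Thy1 were at or near 0 in both genotypes, with 3.21 CPM of Lum in WT polysome replicate 1 as the highest value. Of the 7 fibroblast markers tested, edgeR called 0 in each fraction without the number. With the number as a term, 6 passed as lower in AUF1 cells on polysomes and 5 in total RNA, against the same 13% and 13.1%. The part of these shifts in the results below was not tested, and fewer cells of a type cannot be told apart from less RNA per cell in such bulk samples.

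**Figure D1:**
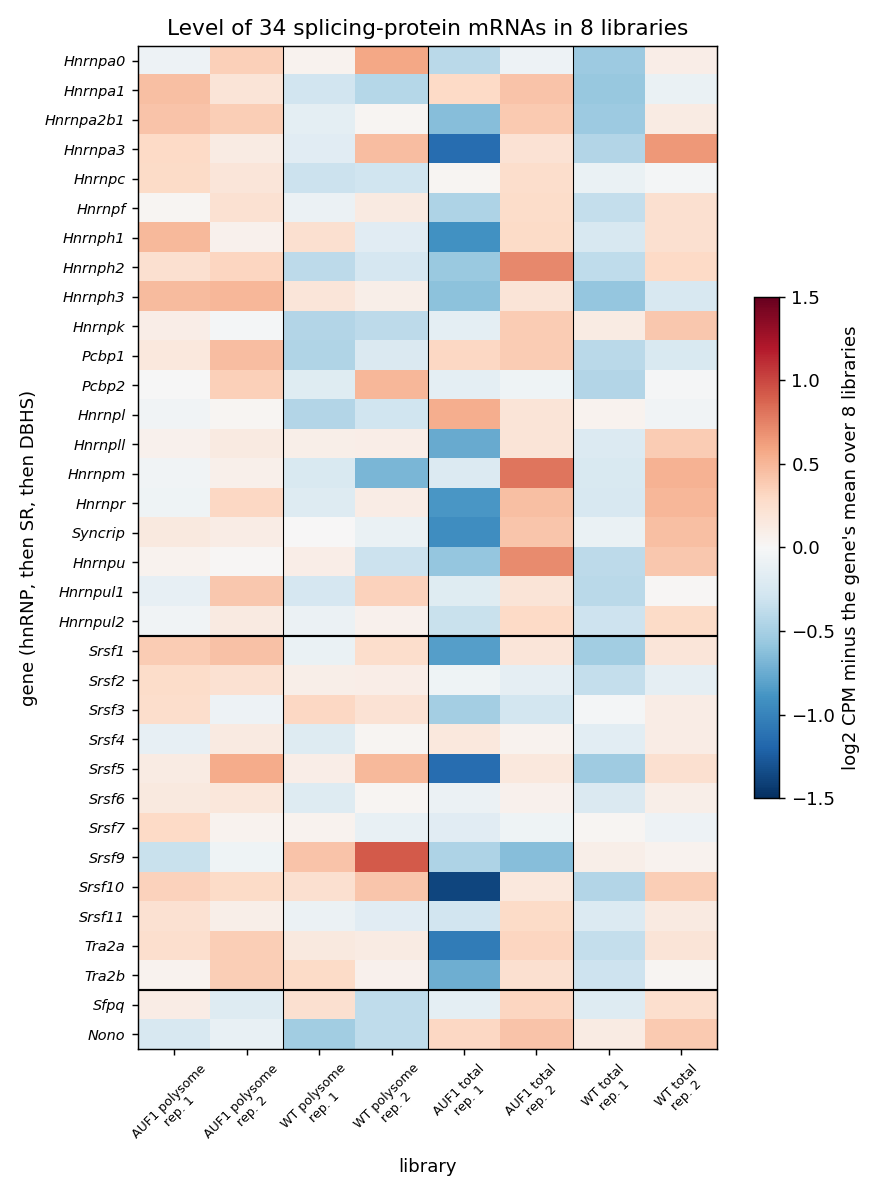
Heat map of log2 CPM of the 34 genes (rows; lines part hnRNP, SR and DBHS genes) in the 8 libraries (columns), each gene centred on its mean over the libraries; red is above and blue below that mean. The AUF1 total library of replicate 1 is the darkest blue column, with Srsf10, Srsf5, Hnrnpa3 and Tra2a lowest in it.

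AU-rich sites were read from the 3' untranslated region of 1 representative GENCODE M21 transcript per gene, since they are the sequence class that AUF1 is known for. The pentamer ATTTA, in DNA letters and on the transcript's strand, was found in 29 of the 34 genes (85.3%) and in 66.9% of 11976 tested genes matched to the annotation. Per kb of 3' untranslated region there were 2.36 pentamers in the members and 1.82 in the matched genes. The members' transcripts were also poorer in GC, with a median of 44.9% against 50.6%. The part of base composition in these counts was not tested. The nonamer TTATTTATT, which holds the pentamer, was found in 1 of the 34 (2.9%), against 7.7% of the matched genes. Windows are printed for the only nonamer and for 2 of the genes with the largest AUF1-over-WT differences on polysomes, with the motif in capitals and mm10 coordinates:
Tra2a, chr6:49244041-49244069, minus strand: aggacaacctTTATTTATTaactagaaca
Pcbp1, chr6:86524699-86524723, minus strand: tccgctaagaATTTAaagaaaaatc
Pcbp1, chr6:86524649-86524673, minus strand: tgggatccatATTTAgttttataag
Pcbp1, chr6:86524512-86524536, minus strand: aatgtcaagaATTTAagaattaaac
Hnrnpc, chr14:52075028-52075052, minus strand: cccattattcATTTAcctaggcgtt
Hnrnpc, chr14:52074689-52074713, minus strand: gaggcatctcATTTActtgtaaccc
Srsf9, the gene with the largest AUF1-over-WT difference of all 34 on polysomes, held no pentamer in its 361 bases of 3' untranslated region. Hnrnpa1 and Hnrnph2, with larger fold changes on polysomes than Hnrnpc, also held pentamers, and their windows are not printed. A match describes the letters only and shows no binding.

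Per kilobase of exon the members spanned a wide range. The length used was that of all annotated exons of a gene joined, not of 1 transcript, and the order of genes depends on it. It was 1830 bases for Pcbp1, as in its representative transcript. For Pcbp2 it was 5203 bases, against 1499 in the representative transcript, and for Hnrnpr 22199 bases. Pcbp1 led with 220.8 CPM per kb over the 8 libraries, followed by Pcbp2 with 122 and Hnrnpa0 with 117. Among SR genes Srsf2 had 77.8 and Srsf9 66.8 CPM per kb. The lowest were Hnrnpr with 2.02, Hnrnpa3 with 2.26, Tra2b with 2.96 and Hnrnpa1 with 3.07 CPM per kb. For some genes the counts depend on how reads shared between genes were treated. The table has 0 reads in its line for reads aligned to several places. Of the 50-base stretches in the representative transcript, 91.0% of those of Hnrnpa3 and 46.4% of those of Hnrnpa1 also occurred in other annotated genes, among them 41 and 18 processed pseudogenes. The same held for 67.3% of Hnrnpf, 65.4% of Srsf4, which overlaps the antisense gene Gm12992, 40.6% of Hnrnpk, 35.2% of Srsf2, 34.6% of Pcbp2 and 31.5% of Srsf3. Stretches shared with a gene that overlaps at the same place, on either strand, were counted too, and these need not align to several places. Overlap with other genes came to 43.0% of the exonic bases of Srsf4, 36.2% of Pcbp2, 26.5% of Hnrnpf and 25.3% of Srsf2. Srsf9 shared 0% and Pcbp1 0.112%. Levels of the first group are therefore uncertain, and in the sources used here the strand setting of the counting is not given.

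The clearest AUF1-over-WT difference on heavy polysomes was in Srsf9, a small SR protein that acts on splice site choice (mm10 chr5:115327177-115333080, plus strand). Srsf9 stood at 82.8 and 99.9 CPM in AUF1 polysome libraries, against 140.1 and 198 CPM in WT polysome libraries. Both AUF1 values lay below both WT values. The log2 fold change was -0.89 ± 0.27, with an adjusted p of 0.222 in edgeR without the number and 0.039 with the number as a term. It was -0.76 within replicate 1 and -0.99 within replicate 2. In total RNA Srsf9 stood at 75.9 and 66.9 CPM in AUF1 total libraries, against 111 and 109 CPM in WT total libraries, again without overlap, and its log2 fold change of -0.62 ± 0.27 was not called (adjusted p 0.390, and 0.122 with the number as a term). The polysome call was lost, with the number as a term, when any one of AUF1 polysome replicate 1, AUF1 polysome replicate 2, WT polysome replicate 2, WT total replicate 1 or WT total replicate 2 was left out, where the adjusted p ranged between 0.069 and 0.342.

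With all 8 libraries, Srsf9 was the only member called in an AUF1-over-WT comparison. In edgeR without the number, 0 of 34 members were called on polysomes, where 0.349% of all genes tested were called, and 3 members had an unadjusted p under 0.05, against 14.1% of all genes. With the number as a term, 1 of 34 was called, against 13% of all genes in either direction and 6.33% as lower. Of the members, 4 then had an unadjusted p under 0.05, against 28.1% of all genes. DESeq2 called 0 of 34, against 5.66% of all genes, with 2 members at an unadjusted p under 0.05, against 12.2%. In total RNA 0 of 34 were called without the number, against 1.02% of all genes, and 0 of 34 with it, against 13.1%. There, 1 member had an unadjusted p under 0.05 without the number, against 13.7% of all genes, and 3 had one with it, against 27.6%. DESeq2 called 0 of 34, against 5.94% of all genes, with 1 member under 0.05, against 11.7%. In none of these fits did the members pass the test more often than genes at large. The counts over all genes behind the 13% and 13.1% themselves moved when single libraries were left out, between 592 and 3011 genes on polysomes, against 1716 with all libraries, and between 329 and 2975 in total RNA, against 1730.

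On polysomes most members nevertheless lay on the higher side in AUF1 cells. The median log2 fold change was 0.17 over the 34 genes, 0.20 over the 20 hnRNP genes and 0.12 over the 12 SR genes. Over all genes tested it was 0.00. Of the members 29 of 34 were above 0, against 50.1% of all genes. Within replicate 1, 27 were above 0, and within replicate 2, 28, against 6574 and 6402 of 13167 genes. The lean was not particular to the members: medians were 0.26 over core spliceosome genes and 0.19 over nonsense-mediated decay factors. They were 0.08 over SR-related proteins and -0.02 over SR kinases, phosphatase and import factors. For 16 of 34 members (47.1%) both AUF1 polysome values lay above both WT polysome values, against 23.6% of all genes. For 1 member (2.94%) they lay below, against 21.2% of all genes. These counts move with the scaling: scaled by library totals alone, the median of all genes was -0.12 and that of the members 0.04, with 20 of 34 above 0 and 11 without overlap on the higher side, against 18% of all genes.

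**Figure D2:**
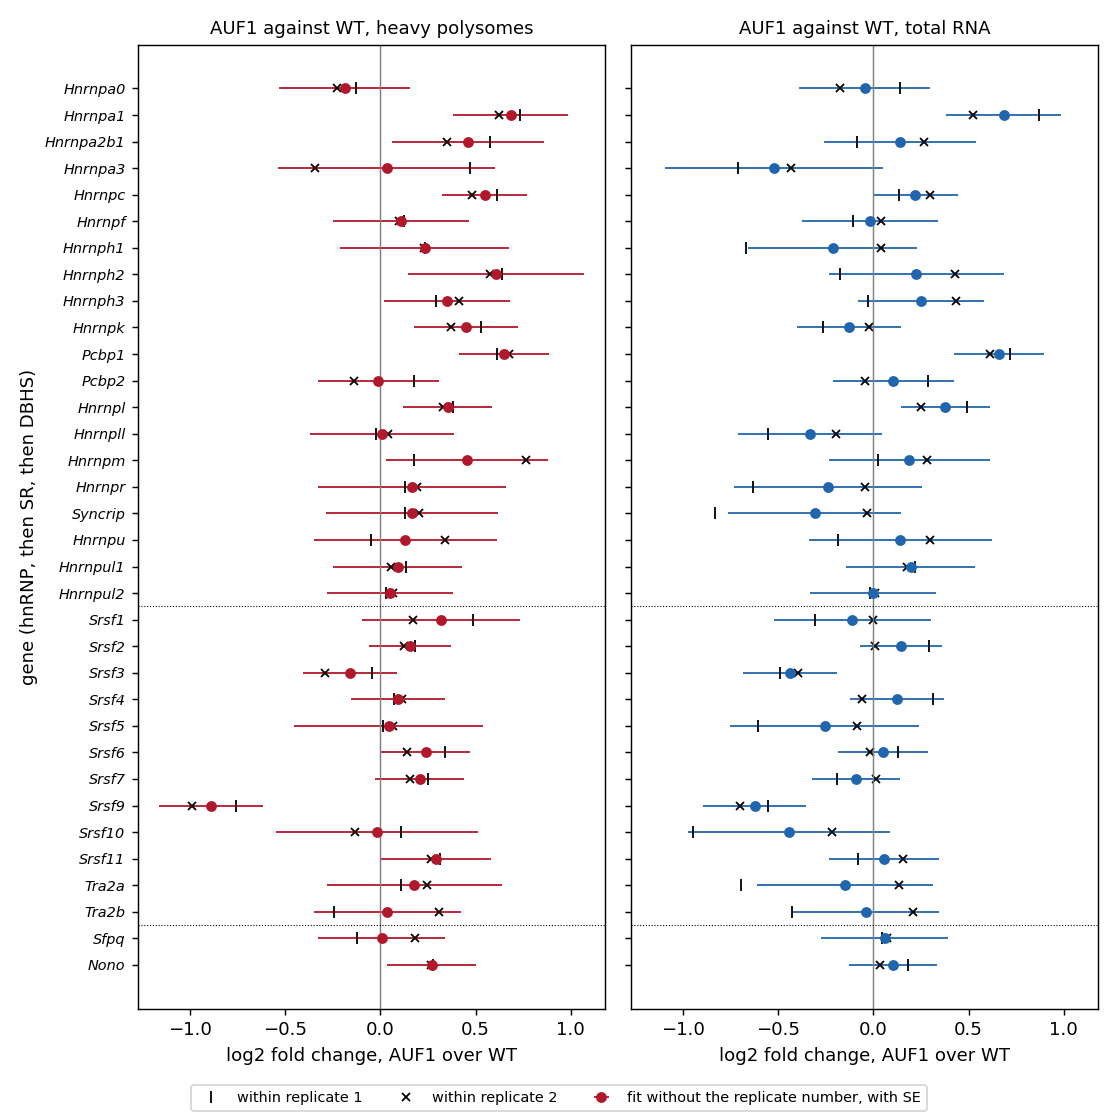
Log2 fold change of AUF1 over WT for the 34 genes on heavy polysomes (left) and in total RNA (right); circles with bars are the edgeR estimates with their SE, ticks and crosses the differences within replicate 1 and within replicate 2. On polysomes 29 of 34 circles lie right of 0 and Srsf9 lies far to the left, while in total RNA 17 lie right of 0 and 17 left.

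Total RNA showed no such lean. The median log2 fold change over the 34 members was 0.02, with 0.12 over the hnRNP genes and -0.10 over the SR genes, and 17 members were above 0 and 17 below. Both AUF1 values lay above both WT values for 5 members (14.7%), against 22.5% of all genes, and below them for 2 (5.88%), against 17.8% of all genes. Scaled by library totals, the median of all genes in this comparison was -0.20 and that of the hnRNP genes turned to -0.07, so their direction in total RNA depends on the scaling.

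Among the poly(C)-binding proteins with KH domains, Pcbp1, which also delivers iron to enzymes, differed in the same way in both fractions. It stood at 438 and 539 CPM in AUF1 polysome libraries, against 286 and 337 CPM in WT polysome libraries. In total RNA it stood at 488 and 511 CPM in AUF1 total libraries, against 297 and 335 CPM in WT total libraries. The groups did not overlap in either fraction, and the log2 fold changes were 0.65 ± 0.24 on polysomes and 0.66 ± 0.24 in total RNA. Neither was called (adjusted p 0.288 and 0.283, and 0.069 and 0.064 with the number as a term). Its close paralog Pcbp2 stood at 621 and 800.5 CPM in AUF1 polysome libraries, against 549.8 and 882 CPM in WT polysome libraries, with overlapping groups and a log2 fold change of -0.01 ± 0.32. Hnrnpk, a KH protein that binds C-rich RNA and DNA, stood at 135 and 124 CPM in AUF1 polysome libraries, against 93.2 and 95.9 CPM in WT polysome libraries, which did not overlap. In total RNA Hnrnpk stood at 114 and 164 CPM in AUF1 total libraries, against 137 and 167 CPM in WT total libraries, which overlapped. Its log2 fold changes were 0.45 ± 0.27 and -0.13 ± 0.27, and neither was called.

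The A/B proteins, among the most abundant packaging proteins of nuclear RNA, went different ways. Hnrnpa1, a repressor of exon inclusion, had the largest positive fold change of all members in both fractions, at a low level and in a gene that shares much of its sequence with pseudogenes. Its polysome level was 12.8 and 10.7 CPM in AUF1 polysome libraries, against 7.69 and 6.95 CPM in WT polysome libraries. Its total level was 11.6 and 12.7 CPM in AUF1 total libraries, against 6.32 and 8.78 CPM in WT total libraries. Neither pair of groups overlapped, and the log2 fold changes of 0.69 ± 0.30 and 0.68 ± 0.30 were not called (adjusted p 0.387 and 0.398). Hnrnpa2b1, which also guides RNA transport, stood at 489 and 471 CPM in AUF1 polysome libraries, against 328 and 370.2 CPM in WT polysome libraries, without overlap and with a log2 fold change of 0.46 ± 0.40 that was not called. Hnrnpa0 had the lowest AUF1-over-WT fold change of the hnRNP genes on polysomes, at 288 and 389 CPM in AUF1 polysome libraries, against 315 and 456 CPM in WT polysome libraries, with overlapping groups and a log2 fold change of -0.19 ± 0.34. Hnrnpa3 had the lowest one in total RNA, at 5.15 and 13.3 CPM in AUF1 total libraries, against 8.46 and 18.01 CPM in WT total libraries. Those groups overlapped, and its log2 fold change of -0.52 ± 0.57 was smaller than its SE.

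Hnrnpc, which binds uridine tracts and forms the core of the nascent RNA particle, stood at 159.7 and 148 CPM in AUF1 polysome libraries, against 104 and 106 CPM in WT polysome libraries. The groups did not overlap, and the log2 fold change of 0.55 ± 0.22 was not called (adjusted p 0.343, and 0.119 with the number as a term). In total RNA the difference was smaller, at 134 and 157 CPM in AUF1 total libraries, against 122 and 128 CPM in WT total libraries, a log2 fold change of 0.22 ± 0.22. Hnrnpl, which binds CA repeats, was on the higher side in both fractions without overlap, with log2 fold changes of 0.35 ± 0.23 on polysomes and 0.38 ± 0.23 in total RNA. Hnrnpll, its paralog known from lymphocyte splicing, was not: it stood at 35.8 and 69.1 CPM in AUF1 total libraries, against 52.6 and 79.3 CPM in WT total libraries, a log2 fold change of -0.33 ± 0.38, with overlap. The F/H proteins, which bind runs of G, had polysome log2 fold changes between 0.11 for Hnrnpf and 0.61 for Hnrnph2, and total RNA ones between -0.21 for Hnrnph1 and 0.25 for Hnrnph3. None was called.

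Hnrnpu, a nuclear scaffold protein, had log2 fold changes of 0.13 ± 0.48 on polysomes and 0.14 ± 0.48 in total RNA, and its relatives Hnrnpul1 and Hnrnpul2 ranged between 0.00 and 0.20 over both fractions. Hnrnpm, which binds GU-rich RNA, stood at 127 and 139 CPM in AUF1 polysome libraries, against 113 and 81.8 CPM in WT polysome libraries, without overlap and with a log2 fold change of 0.45 ± 0.42, against 0.19 ± 0.42 in total RNA, where the groups overlapped. Hnrnpr and Syncrip (also called hnRNP Q) are a pair of closely related proteins. Syncrip lay higher without overlap on polysomes, at 103 and 100.1 CPM in AUF1 polysome libraries, against 93.6 and 86.9 CPM in WT polysome libraries, a log2 fold change of 0.17 ± 0.45, and overlapped in total RNA with -0.31 ± 0.45, made up of -0.83 within replicate 1 and -0.03 within replicate 2. Hnrnpr overlapped in both fractions, with 0.17 ± 0.49 and -0.24 ± 0.49. None of these genes was called.

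**Figure D3:**
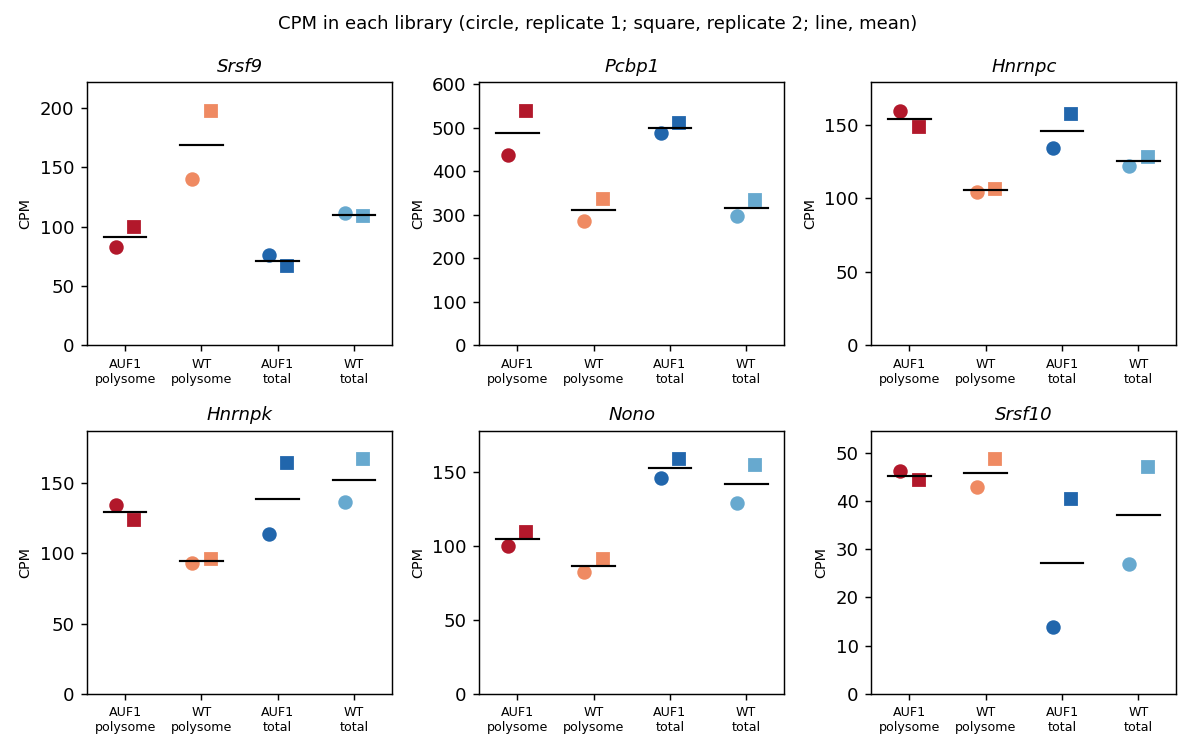
CPM of Srsf9, Pcbp1, Hnrnpc, Hnrnpk, Nono and Srsf10 in each of the 8 libraries, from 0; circles are replicate 1, squares replicate 2, and lines group means. Srsf9 is lower and Pcbp1 higher in AUF1 than in WT libraries of the same fraction, Nono is lower on polysomes than in total RNA, and Srsf10 is lowest in AUF1 total replicate 1, at 13.9 CPM.

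Apart from Srsf9, the SR genes showed small AUF1-over-WT differences. Srsf3, a small SR protein that couples splicing to export, stood at 59.9 and 70.5 CPM in AUF1 total libraries, against 84.1 and 92.6 CPM in WT total libraries. Those groups did not overlap, and the log2 fold change of -0.44 ± 0.25 was not called (adjusted p 0.526). On polysomes Srsf3 stood at 103 and 81.1 CPM in AUF1 polysome libraries, against 106 and 99.1 CPM in WT polysome libraries, with overlap and a log2 fold change of -0.16 ± 0.25. Srsf1, the founding SR splicing factor, had the largest positive polysome difference of the family, at 221 and 229 CPM in AUF1 polysome libraries, against 157 and 203 CPM in WT polysome libraries. The groups did not overlap, but the log2 fold change of 0.32 ± 0.41 was below its SE. Srsf2, which marks nuclear speckles, had the largest positive total RNA difference of the family, at 217 and 208 CPM in AUF1 total libraries, against 178 and 207 CPM in WT total libraries, a log2 fold change of 0.15 ± 0.22. On polysomes it stood at 276 and 267 CPM in AUF1 polysome libraries, against 243 and 245 CPM in WT polysome libraries, with 0.16 ± 0.22. The groups did not overlap in either fraction, and both fold changes were below their SE.

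Srsf10, which represses splicing when dephosphorylated, had the second lowest AUF1-over-WT fold change of the SR genes in total RNA, at 13.9 and 40.5 CPM in AUF1 total libraries, against 26.9 and 47.1 CPM in WT total libraries. The low value of AUF1 replicate 1 made its log2 fold change -0.44 ± 0.53, with -0.95 within replicate 1 and -0.22 within replicate 2. Srsf4, a longer SR protein, stood at 97.5 and 90.5 CPM in AUF1 total libraries, against 78.4 and 94.3 CPM in WT total libraries, a log2 fold change of 0.12 ± 0.25. Srsf11 stood at 80.9 and 73.5 CPM in AUF1 polysome libraries, against 65.0 and 61.1 CPM in WT polysome libraries, without overlap and with 0.29 ± 0.29. The remaining SR and SR-like genes, Srsf5, Srsf6, Srsf7, Tra2a and Tra2b, had polysome log2 fold changes between 0.04 for Tra2b and 0.24 for Srsf6. Their total RNA values lay between -0.26 for Srsf5 and 0.05 for Srsf6.

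Of the DBHS pair, which bind the noncoding RNA Neat1 in paraspeckles, Nono stood at 99.6 and 109 CPM in AUF1 polysome libraries, against 82.3 and 90.9 CPM in WT polysome libraries, without overlap and with a log2 fold change of 0.27 ± 0.23. Sfpq overlapped in both fractions, with 0.01 ± 0.33 and 0.06 ± 0.33.

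Polysome libraries were next set against total RNA of the same genotype, which describes how much of an mRNA is on heavy polysomes relative to other mRNAs. In AUF1 cells the median log2 fold change, polysome over total, was 0.37 over the 12 SR genes, with 11 of 12 above 0, 0.16 over the 20 hnRNP genes, and -0.02 over all genes tested. In WT cells it was 0.22 over the SR genes, with 8 of 12 above 0, -0.03 over the hnRNP genes, and 0.02 over all genes. Of all genes tested, 47.9% were above 0 in AUF1 cells and 52% in WT cells. In AUF1 cells 7 SR genes (58.3%) and 2 hnRNP genes (10%) had both polysome values above both total values, against 8.86% of all genes, and 4 SR genes (33.3%) and 1 hnRNP gene (5%) did so in WT cells, against 13% of all genes. Values below total without overlap were seen for 2 of 34 members (5.88%) in AUF1 cells, against 13.4% of all genes, and for 5 (14.7%) in WT cells, against 14.9%.

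No member was called in these comparisons. edgeR without the number called 0 of 34 members in either genotype and 0% of all genes. With the number as a term it called 0 of 34, against 0.0152% of all genes in AUF1 and 0.0152% in WT cells, and DESeq2 called 0 of 34 in each, against 0.236% and 0.422% of all genes. Unadjusted p-values under 0.05 were found without the number for 0 members in AUF1 cells and 2 in WT cells, against 3.33% and 2.76% of all genes. With the number they were found for 5 and 4 members, against 12.2% and 8.02%, and with DESeq2 for 0 and 1, against 2.67% and 2.56%. The size of the difference also depended on the replicate number. Within replicate 1 the median over the 34 members was 0.48 in AUF1 cells, with 30 above 0, and within replicate 2 it was -0.03, with 16 above 0. In WT cells these medians were 0.26, with 26 above 0, and -0.10, with 12 above 0. Over the SR genes alone the median was 0.65 within replicate 1 and 0.13 within replicate 2 in AUF1 cells, and 0.37 and 0.04 in WT cells.

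**Figure D4:**
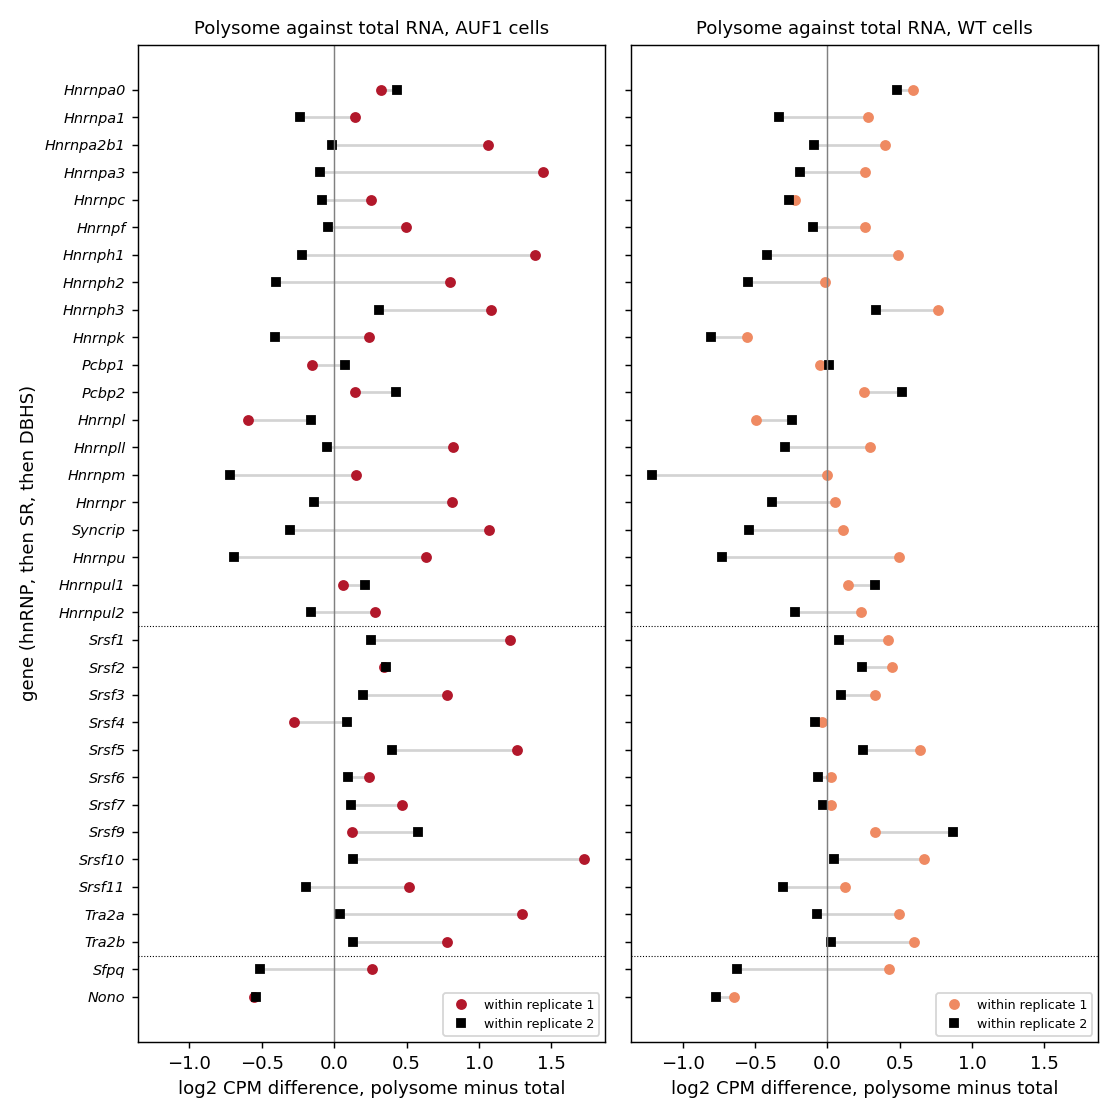
Log2 CPM on heavy polysomes minus log2 CPM in total RNA for the 34 genes in AUF1 cells (left) and WT cells (right), within replicate 1 (circles) and replicate 2 (squares). Circles lie right of squares for most genes. Nono and Hnrnpl lie left of 0 in both replicates and both genotypes, and Srsf9, Srsf2 and Hnrnph3 are among the genes that lie right of 0 in all of them.

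Some genes kept their side of 0 in both replicates and both genotypes. Only Nono and Hnrnpl did so below 0. Above 0 were Hnrnph3, Srsf9 and Srsf2, and also Hnrnpa0, Pcbp2, Hnrnpul1, Srsf1, Srsf3, Srsf5, Srsf10 and Tra2b. Nono was the member lowest on polysomes relative to total RNA. In AUF1 cells it had 99.6 and 109 CPM in AUF1 polysome libraries, against 146 and 159 CPM in AUF1 total libraries, and in WT cells 82.3 and 90.9 CPM in WT polysome libraries, against 129 and 155 CPM in WT total libraries. The fractions did not overlap in either genotype, with log2 fold changes of -0.55 ± 0.23 and -0.71 ± 0.23 and adjusted p-values with the number as a term of 0.370 and 0.422. Hnrnpl was lower too, at 242 and 256 CPM in AUF1 polysome libraries, against 366 and 287 CPM in AUF1 total libraries. In WT cells it had 185 and 204 CPM in WT polysome libraries, against 261 and 242 CPM in WT total libraries, and its log2 fold changes were -0.39 ± 0.23 and -0.37 ± 0.23. Hnrnph3, the shortest of the F/H family, was higher, at 60.7 and 62.1 CPM in AUF1 polysome libraries, against 28.6 and 50.01 CPM in AUF1 total libraries. It had 49.6 and 46.7 CPM in WT polysome libraries, against 29.2 and 37.0 CPM in WT total libraries, and its log2 fold changes were 0.64 ± 0.33 and 0.54 ± 0.33.

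Srsf9 was higher on polysomes in both genotypes. In AUF1 cells it had 82.8 and 99.9 CPM in AUF1 polysome libraries, against 75.9 and 66.9 CPM in AUF1 total libraries, and in WT cells, where it was the SR gene with the largest difference, 140.1 and 198 CPM in WT polysome libraries, against 111 and 109 CPM in WT total libraries. The log2 fold changes were 0.35 ± 0.27 in AUF1 and 0.62 ± 0.27 in WT cells. Hnrnpk differed between genotypes in overlap. It had 135 and 124 CPM in AUF1 polysome libraries, against 114 and 164 CPM in AUF1 total libraries, which overlapped, a log2 fold change of -0.11 ± 0.27. In WT cells it had 93.2 and 95.9 CPM in WT polysome libraries, against 137 and 167 CPM in WT total libraries, which did not, a log2 fold change of -0.68 ± 0.27. Hnrnpm had 127 and 139 CPM in AUF1 polysome libraries, against 115 and 229.6 CPM in AUF1 total libraries, with overlap and a log2 fold change of -0.37 ± 0.42. In WT cells it had 113 and 81.8 CPM in WT polysome libraries, against 113 and 189 CPM in WT total libraries. Its WT log2 fold change of -0.63 ± 0.43 came from replicate 2, with 0.00 within replicate 1 and -1.21 within replicate 2. Hnrnpa0 in WT cells had 315 and 456 CPM in WT polysome libraries, against 209 and 326 CPM in WT total libraries, with overlap between the fractions and a log2 fold change of 0.53 ± 0.34.

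The size of several large differences in AUF1 cells rested on one library. Srsf10 had 46.2 and 44.3 CPM in AUF1 polysome libraries, against 13.9 and 40.5 CPM in AUF1 total libraries, a log2 fold change of 0.73 ± 0.53, with 1.73 within replicate 1 and 0.13 within replicate 2. Srsf5, an SR protein that responds to insulin signalling, had 91.4 and 124 CPM in AUF1 polysome libraries, against 38.1 and 94.0 CPM in AUF1 total libraries, with 1.26 within replicate 1 and 0.40 within replicate 2. Hnrnpa3 had 14.1 and 12.5 CPM in AUF1 polysome libraries, against 5.15 and 13.3 CPM in AUF1 total libraries, with 1.44 within replicate 1 and -0.10 within replicate 2. In each gene the AUF1 total value of replicate 1 was the lowest of the 8 libraries. With the number as a term and AUF1 total replicate 2 left out, so that this library alone stood for AUF1 total RNA, 6 members were called as higher on polysomes (Hnrnph1, Hnrnph3, Srsf1, Srsf5, Srsf10 and Tra2a), with 1133 genes called in all. Srsf4 had the lowest AUF1 value of the SR genes, -0.09 ± 0.25, at 80.4 and 96.4 CPM in AUF1 polysome libraries, against 97.5 and 90.5 CPM in AUF1 total libraries, and the second lowest WT value, -0.06 ± 0.25, at 76.6 and 89.1 CPM in WT polysome libraries, against 78.4 and 94.3 CPM in WT total libraries. Srsf11 had the second lowest AUF1 value, 0.13 ± 0.29, at 80.9 and 73.5 CPM in AUF1 polysome libraries, against 56.5 and 84.2 CPM in AUF1 total libraries, and the lowest WT value, -0.10 ± 0.29, at 65.0 and 61.1 CPM in WT polysome libraries, against 59.7 and 75.5 CPM in WT total libraries. In all 4 cases the fractions overlapped. Srsf5 in WT cells had 90.6 and 118 CPM in WT polysome libraries, against 58.1 and 99.6 CPM in WT total libraries, also with overlap, the second highest WT value of the SR genes at 0.41 ± 0.50.

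Whether AUF1 changed polysome loading beyond total RNA was tested with the interaction, the polysome fold change minus the total fold change of AUF1 over WT. It called 0 of 34 members and 0% of all genes without the number, 0 of 34 and 0% with it, and 0 of 34 with DESeq2. The members' median was 0.21, with 25 of 34 above 0, against a median of -0.02 and 47.4% above 0 over all genes. Within the replicate numbers the members' median was 0.27 and 0.11. No member had an unadjusted p under 0.05 in any of the 3 fits, against 0.122%, 0.372% and 0.139% of all genes. The largest interaction was that of Hnrnpk, 0.58 ± 0.38, with 0.80 within replicate 1 and 0.39 within replicate 2. Hnrnpa3 followed with 0.55 ± 0.81, and among SR genes Srsf1 with 0.43 ± 0.58. The lowest was Srsf9 with -0.27 ± 0.38, smaller than its SE. With an SE of 0.48 at the median member, differences in loading of this size were not detectable with these libraries.

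The total RNA libraries of replicate 1 stood apart for these genes. The log2 difference of replicate 2 minus replicate 1 had a median over the 34 members of 0.60 in AUF1 total RNA, with 30 above 0, and of 0.45 in WT total RNA, with 31 above 0. Over all genes tested these medians were -0.13 and 0.00, with 44.2% and 50.4% above 0. On polysomes the members' medians were 0.06 in AUF1 and 0.14 in WT cells. Syncrip stood at 124 CPM in AUF1 total replicate 2 and 48.8 CPM in AUF1 total replicate 1, and Hnrnpu at 353 and 144.5 CPM. Tra2a, an SR-like protein first known from sex determination in flies, stood at 95.0 and 36.6 CPM. Hnrnpl, Srsf2, Srsf4 and Srsf9 were slightly lower in replicate 2 of AUF1 total RNA, with differences down to -0.35 for Hnrnpl.

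**Figure D5:**
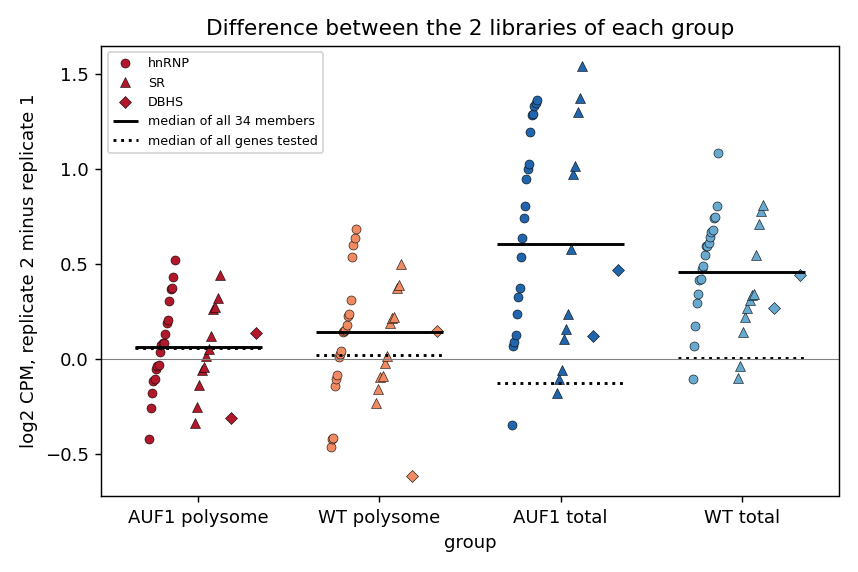
Log2 CPM of replicate 2 minus replicate 1 for hnRNP (circles), SR (triangles) and DBHS (diamonds) genes in the 4 groups; solid lines are medians of the 34 members and dotted lines medians of all genes tested. The solid line lies at 0.60 in AUF1 total and 0.45 in WT total RNA, and at 0.06 and 0.14 on polysomes.

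The replicate difference in total RNA went with base composition. Across 11976 matched genes its Spearman correlation with the GC content of the transcript was -0.55 in AUF1 total and -0.35 in WT total RNA, and -0.02 and -0.01 on polysomes. Across the 34 members it was -0.56 in AUF1 and -0.25 in WT total RNA, and of the opposite sign on polysomes, 0.38 in AUF1 and 0.30 in WT cells. Genes of one library share its preparation and depth, so these values are descriptions. The members' median transcript GC content was 44.9%, against 50.6% over the matched genes. Its part in the replicate difference was not tested.

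Genes that work with these proteins were counted in the same fits. Of the 13 kinases, phosphatase and import factors of SR proteins, edgeR called 0 without the number. With the number it called 1 in each fraction, against 13% and 13.1% of all genes. This was Srpk3, a muscle SR protein kinase, at 30.7 and 49.4 CPM in AUF1 polysome libraries, against 2.98 and 7.49 CPM in WT polysome libraries. In total RNA it stood at 58.9 and 53.4 CPM in AUF1 total libraries, against 5.55 and 8.43 CPM in WT total libraries, without overlap, and its log2 fold changes of 2.94 ± 0.54 and 3.01 ± 0.54 had adjusted p-values of 0.001 and 8.0e-04 with the number as a term, and 0.084 and 0.071 without it. Median log2 fold changes of this list were -0.02 and -0.04. DESeq2, fitted without the number, called 1 of the 13 in each fraction, against 5.66% of all genes on polysomes and 5.94% in total RNA. In total RNA that gene was Srpk3 (adjusted p 4.8e-05 in DESeq2). Of 35 core spliceosome genes, 28 were above 0 in each fraction, against 50.1% of all genes on polysomes and 50.2% in total RNA. The medians of this list were 0.26 on polysomes and 0.35 in total RNA. Other scalings were checked for the members but not for this list. Scaled by library totals, the median of all genes was -0.12 on polysomes and -0.20 in total RNA. edgeR called 0 of the 35 in each fraction without the number and 1 with it, against 13% and 13.1% of all genes. That gene was Prpf19, a ubiquitin ligase of the spliceosome, with log2 fold changes of 1.03 ± 0.27 and 1.16 ± 0.27. Its adjusted p-values in edgeR were 0.163 and 0.125 without the number and 0.022 and 0.012 with it. DESeq2 called 1 of the 35 in each fraction, against 5.66% and 5.94% of all genes.

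Of 21 SR-related proteins, 1 passed with the number as a term in total RNA, against 13.1% of all genes, and 0 passed without it. It was Rnps1, which joins the exon junction complex, at 30.2 and 31.6 CPM in AUF1 total libraries, against 15.9 and 18.8 CPM in WT total libraries, a log2 fold change of 0.83 ± 0.27 (adjusted p 0.041 with the number, 0.234 without it and 0.172 in DESeq2). On polysomes its log2 fold change was 0.59 ± 0.27 (adjusted p 0.125 with the number), and the interaction was not called. edgeR called 0 of the 14 nonsense-mediated decay factors in either fraction, as did DESeq2. With the number as a term edgeR also called 0, against 13% and 13.1% of all genes. Unadjusted p-values under 0.05 were found for 0 factors on polysomes and 1 in total RNA in edgeR, against 14.1% and 13.7% of all genes, for 1 and 2 with the number, against 28.1% and 27.6%, and for 0 and 1 in DESeq2, against 12.2% and 11.7%. The list had medians of 0.19 on polysomes and 0.21 in total RNA. On polysomes relative to total RNA, the core spliceosome list had medians of -0.24 in AUF1 and -0.32 in WT cells, where the SR genes had 0.37 and 0.22. The nuclear noncoding RNA Neat1 stood at 24.2 and 23.2 CPM in AUF1 polysome libraries, against 34.3 and 61.1 CPM in AUF1 total libraries. In WT cells it stood at 28.7 and 28.3 CPM in WT polysome libraries, against 41.3 and 57.9 CPM in WT total libraries, so this nuclear RNA was also counted in the polysome libraries. Malat1 was measured too, at 3.43 to 11.5 CPM on polysomes, and the other 5 listed nuclear RNAs were left out of the edgeR fits because of low counts.

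In the annotation the SR genes differed from the other members in a feature that the choice of genes did not use. At least 1 transcript annotated for nonsense-mediated decay was present for 11 of 12 SR genes (91.7%), 9 of 20 hnRNP genes (45%) and neither DBHS gene, against 28.1% of matched genes. The counts here are per gene, so productive transcripts and those with a poison exon were not separated, and a change in their ratio would not be seen.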

How the data were processed

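The deposited values were raw counts per gene symbol in 1 table, 1 column per library, with 23420 gene lines and 5 summary lines. Per the submitters' processing notes, cutadapt, Bowtie, Trimmomatic, STAR and SAMtools were used with the build mm10; in the sources used here no version, annotation, counting program or strand setting is given. Reads outside genes made up 6.04% to 7.23% of the counts and reads fitting more than 1 gene 0.254% to 0.389%; these lines were left out of totals and tests. Following the design text, libraries with High in the title (molecule: cytoplasmic RNA) were taken to be heavy polysomes. Titles number the replicates 1 and 2 while descriptions call the second one Rep3; title numbers were used.

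Genes were filtered with filterByExpr, scaled by TMM and fitted with edgeR 4.0.16 in R 4.3.3, with 1 coefficient per group over all 8 libraries. Tests were two-sided, adjusted by Benjamini and Hochberg over 13167 genes. Dividing a log2 fold change by the root of its F statistic gave its SE. CPM differences within a replicate number used a prior count of 2. Alternatives were the replicate number as an additive term, DESeq2 1.42.0, RLE scaling, library totals, no filter and leaving out each library. Residual degrees of freedom were 4 without and 3 with the number. The labels do not show that the numbers pair cultures, so they were treated as a possible batch. The 2 libraries of each group differed by far more than sampling noise (chi-square per gene 309 to 464), and each was counted as its own sample. Depth was at least 25281224 counts per library, so the spread between libraries and not counting error limits the results.

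Sequence features came from 1 transcript per gene of GENCODE M21 (mm10); by symbol, 11976 tested genes (91.0%) were matched. The scripts were tested on simulated data with added differences between AUF1 and WT total RNA. There the fit without the number missed the added differences, and the fit with it found only part of them. In the deposited data the fit without the number called 134 genes in total RNA. The simulated setting thus differed from the data and does not give the power of these tests. With 2 libraries a group, a count of 0 called members does not show that levels were equal. Where leaving out a library left 1 in a group, that library was assumed to vary like the other groups. The members and gene lists were chosen with earlier results of these data known. The naming rule asked for the values in all 8 libraries of the called members and of the 2 hnRNP and 2 SR genes with the largest and smallest fold change; in each comparison of 2 groups their values in the 4 libraries compared are given, and none were added for the interaction, while at most 4 genes of any other list are named; Hnrnpl, Hnrnpk, Hnrnpc, Hnrnpa2b1, Srsf3, Nono, Syncrip, Hnrnpu and Tra2a were given library values in further comparisons after their values were seen, and the scaling of lists was checked after the data were seen.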

Additional observations from a re-analysis of the deposited data

Results flagged for a closer look

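For 5 members the AUF1-over-WT difference had opposite signs in the 2 fractions, higher on polysomes and lower in total RNA, within both replicate numbers. The share of all genes with this pattern was not counted, so the 5 are not shown to be unusual. For Hnrnpk the interaction, polysome minus total fold change, was 0.58, with unadjusted p 0.180 in edgeR. For Syncrip it was 0.48 (unadjusted p 0.485), for Srsf1 0.43 (0.490), for Hnrnpr 0.41 (0.581) and for Srsf5 0.30 (0.683). None passed in edgeR's quasi-likelihood test, where the adjusted p was 1 for each, so the 2 fractions are not shown to differ. In total RNA the differences within replicate 2 were close to 0, from -0.08 for Srsf5 to 0.00 for Srsf1. The sign there rests on small values. Within replicate 1 they were -0.83 for Syncrip, -0.63 for Hnrnpr, -0.61 for Srsf5, -0.31 for Srsf1 and -0.27 for Hnrnpk. All of these genes but Hnrnpk had their lowest CPM of the 8 libraries in AUF1 total replicate 1. Groups of 2 libraries were too small to tell which library of a group was the outlying one. Across the 8 libraries, AUF1 total replicate 1 had the lowest TMM scaling factor and the lowest share of counts in the members (0.345%). On the first principal component of the members alone it lay at one end, with WT total replicate 1 next to it. The cause was not tested.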

How the results depend on the processing

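The count of members called was 0 of 34 in each comparison under DESeq2, RLE scaling, library totals and no filter, and when any single library was left out of the fit without the number. With the replicate block it became 1 on polysomes (Srsf9) and stayed 0 in total RNA, in both polysome-over-total comparisons and in the interaction. Leaving out single libraries with the block gave 0 to 2 members called for AUF1 over WT on polysomes, 0 to 4 in total RNA, 0 to 6 for polysome over total in AUF1 cells, and 0 in the other comparisons. The upper values came without AUF1 total replicate 2, where Pcbp1, Syncrip, Srsf10 and Tra2a were called in total RNA and Srsf9 and Pcbp1 on polysomes. For Srsf9 on polysomes the log2 fold change was -0.62 to -1.12 over all alternatives. The median replicate difference of the members in AUF1 total RNA was 0.90 with library totals, against 0.60 with TMM. Counts over all genes depended strongly on the setting: for AUF1 over WT, edgeR without the number called 134 genes in total RNA and 46 on polysomes, but 0 and 0 with RLE scaling, with library totals and without any one library, 166 and 94 with no filter, 825 and 805 with DESeq2, and 1730 and 1716 with the replicate block. With the block, leaving out 1 library gave 329 (without WT total replicate 1) to 2975 genes (without AUF1 total replicate 2) in total RNA, with 628 and 1204 without WT total replicate 2 and AUF1 total replicate 1. On polysomes it gave 592 (without AUF1 polysome replicate 1) to 3011 (without AUF1 total replicate 1), with 949, 1130 and 2802 without AUF1 polysome replicate 2, WT polysome replicate 1 and AUF1 total replicate 2. The cause was not tested. For polysome over total, DESeq2 called 28 genes in AUF1 and 29 in WT cells, against 0 and 0 in edgeR. With 2 libraries a group, differences of the size seen here were mostly within the spread between libraries.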
